A study of Mus musculus with 48 samples.

Results

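The effect of PPARγ knockdown (PPARγ KD) on transcript levels was followed in 3T3-L1 cells, a mouse fibroblast line that turns into adipocytes under hormones, on day 3 of differentiation. The comparison sets the 3 arrays of cells given PPARγ siRNA against the 3 arrays of cells given control siRNA on the same day, paired by replicate number. These are 6 of the 48 arrays of the study, which covers 8 days, and the comparison runs over all 24613 probes of an Illumina mouse array. Both groups received their siRNA at 50 nM and the same hormones: IBMX at 0.5 mM with dexamethasone at 0.25 µM for 48 h, then insulin at 5 µg/ml with rosiglitazone at 1 µM for 48 h. The step from which days are counted is not certain. If it was the addition of insulin and rosiglitazone, day 3 was the day after that stage ended. If it was the addition of IBMX and dexamethasone, day 3 fell within the insulin and rosiglitazone stage. Either way, rosiglitazone had been added before day 3. The replicates are independent biological replicates of 1 cell line per the labels. The control cells had therefore been given rosiglitazone, a PPARγ ligand, too.

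PPARγ is a nuclear receptor that binds DNA as a heterodimer with RXR and, when bound by a ligand such as rosiglitazone, switches on genes of lipid storage. It is required for fibroblasts to become adipocytes, and it works together with C/EBPα, another transcription factor of the adipocyte. The comparison asks which transcripts differ in level on this day when PPARγ is depleted.

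All values are log2 signals after background correction and scaling, and a difference is the KD value minus the control value of the same replicate, averaged over 3 pairs. SE is the standard error of that difference from the fit over all 48 arrays. The replicate block of that fit is shared by all days, so SE does not measure the spread of the 3 pairs alone. A call means a p of at most 0.05 after Bonferroni correction over all probes. Between 33.5% and 39.4% of the probes gave a signal above background, at a detection p under 0.01, on the 6 arrays, with the lowest shares on both arrays of replicate 3. Where a probe had no signal above background under 1 siRNA, its fold is a bound. The brighter group's mean was then set against the lowest detected signal of each dimmer array, or the probe's own if that exceeded it. In cultured cells, fewer differentiated cells and less RNA per cell cannot be told apart. The median difference of all probes was −0.10, and 0.04 over the 9446 probes above background on at least 3 of the 6 arrays. With quantile normalization the median of all probes was 0.01, so a small difference is read against this shift.

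The targeted gene was measured first. The brightest Pparg probe (6130632) read 11.61, 11.38 and 11.46 on the control arrays and 8.89, 8.90 and 8.78 on the KD arrays of replicates 1 to 3. The groups were far apart, and the difference of −2.63 (SE 0.11, adjusted p = 2.63e-19) leaves 6.18-fold less signal in the KD. A second probe (1990168) read 8.80, 8.57 and 7.99 in the controls and was above background on no KD array, which gives at least 3.73-fold less signal. The third Pparg probe (2680603) was not well above background on any of the 6 arrays. The labels of all 6 arrays thus matched the level of the gene they name, and the brightest probe stayed above background on 3 of 3 KD arrays.

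On day 3, 680 probes (623 gene names) were called, which is 2.76% of all probes. Of these, 563 probes were lower in the PPARγ KD, 2.29% of all probes, and 117 were higher, 0.475%. Falls were also larger than rises: the median difference was −0.95 among the lower probes and 0.71 among the higher ones. A fall past 1 on the log2 scale was seen for 265 of the called probes, past 2 for 103 and past 4 for 17, while 15 called probes rose by over 1 and 0 by over 2. All 680 called probes moved the same way in 3 of 3 pairs, which is not separate evidence, since the call rests on the same arrays. Lower probes made up 82.8% of the called ones, and 74.5% with quantile normalization. The count rests on the replicate block and on the number of replicates. When the block was dropped 352 probes were called, 280 when replicate 1 was left out, 314 when replicate 2 was and 540 when replicate 3 was. Lower probes outnumbered higher ones under each of these settings (317 and 35, 257 and 23, 296 and 18, and 451 and 89).

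**Figure D1:**
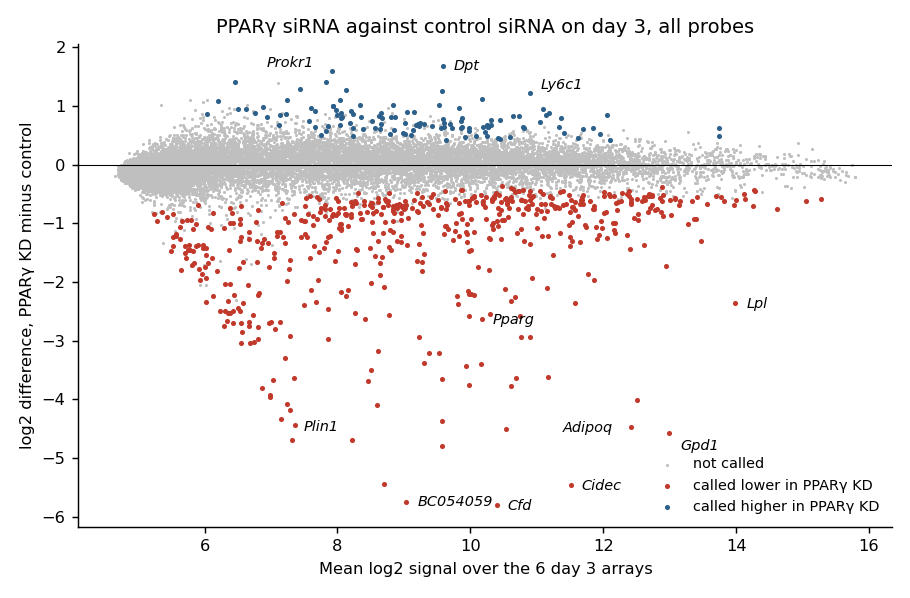
Each point is 1 of 24613 probes, with the mean log2 signal over the 6 day 3 arrays on the horizontal axis and the log2 difference, PPARγ KD minus control, on the vertical axis. The 563 probes called lower reach −5.80 (Cfd), while the 117 called higher end at 1.68 (Dpt).

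For part of the lower probes no signal above background was left in the KD. Of the 563 lower probes, 68 had signal above background on 3 of 3 control arrays and none of the KD arrays, and 408 were above background on all 6. Among the 117 higher probes, 104 were above background on all 6 arrays and 2 went from 0 of 3 control arrays to 3 of 3 KD arrays. These were Elmo1, a regulator of cell migration, and Olfr1036, an olfactory receptor gene named here after its values were seen.

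Transcription factors and cofactors of adipogenesis were lower for a minority of the list. Of 47 probes for 31 genes, 10 probes (7 genes) were lower, and the median of the list was −0.17. The 3 Pparg probes, which the siRNA targets, are among these, and without them 7 of 44 probes (6 genes) were lower (median −0.16). Cebpa, which encodes C/EBPα and drives adipocyte genes beside PPARγ, read 7.59, 7.62 and 8.05 in the controls and was above background on no KD array, at least 2.29-fold lower. Nr1h3, which encodes the oxysterol receptor LXRα, fell from 9.83, 9.82 and 9.54 to 7.24, 6.84 and 7.20 (−2.64, SE 0.13, adjusted p = 8.25e-17). The KD arrays lay below every control array for both. Ppargc1b, a coactivator of mitochondrial genes, was at least 3.43-fold lower, with no KD array above background, and its relative Ppargc1a fell by 1.79 (8.16 to 6.37). Rxra, which encodes the partner of PPARγ, fell from 8.54 to 7.70 (−0.84, SE 0.11, adjusted p = 6.33e-05). Ebf2 had signal above background on 2 control arrays and no KD array (at least 1.21-fold), and lost its call without replicate 1 (−1.03) and without replicate 2 (−0.97). Some regulators that act with or before PPARγ did not pass the test: Klf15 at −1.38, Esrra at −0.62, Stat5a at −0.46, Ebf1 at −0.29 and Klf4 at 0.78.

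Of 16 probes for 15 proteins that coat or shape the lipid droplet, 7 were lower (median −0.30). Cidec, which enlarges droplets by fusing them, read 14.55, 14.34 and 13.83 in the controls and 8.91, 9.06 and 8.37 in the KD (−5.46, SE 0.22, adjusted p = 1.43e-20), a 44-fold fall. Plin1, the droplet coat protein of adipocytes, read 9.59, 9.49 and 9.66 and was above background on no KD array, at least 8.14-fold lower. G0s2, an inhibitor of adipose triglyceride lipase, fell from 11.76 to 7.40 (−4.37), Plin4 from 12.74 to 10.39 (−2.35), Fitm2 from 8.67 to 6.54 (−2.13) and the seipin gene Bscl2 from 10.19 to 9.01 (−1.19). The other coat proteins behaved differently from Plin1: Plin2, which many cell types carry, fell by 0.45 (SE 0.07, adjusted p = 0.0106), and Plin3 stood at 0.34 and did not pass the test. Cav1, a caveolar protein of the cell surface, was bright and stood at 14.61 in the controls and 14.53 in the KD.

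In the lipolysis list, 9 of 19 probes were lower, and the median was −1.02 against −0.10 for all probes. Pnpla2, the adipose triglyceride lipase, read 14.53, 14.61 and 14.38 in the controls and 10.57, 10.46 and 10.45 in the KD (−4.01, SE 0.16, adjusted p = 9.00e-21). Lipe, the hormone-sensitive lipase that acts after it, fell from 9.34 to 6.37 and was above background on 1 of 3 KD arrays (−2.97). Mrap, an accessory protein of the melanocortin receptor that signals lipolysis, was above background on no KD array and at least 29.4-fold lower. The carboxylesterase named Ces3 on the array fell from 11.97 to 7.17 (−4.80), and the niacin receptor gene Hcar2 was at least 4.64-fold lower. Pnpla3, related to Pnpla2, was at least 4.94-fold lower. The adrenergic receptor genes Adrb1 and Adrb3 were not well above background on any of the 6 arrays.

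In triglyceride synthesis, 9 of 25 probes (7 genes) were lower (median −0.32). Gpd1, which makes the glycerol backbone, was among the brightest probes of the controls at 15.26, 15.26 and 15.33 and read 10.86, 10.88 and 10.37 in the KD, a 23.9-fold fall (−4.58, SE 0.14, adjusted p = 9.97e-25). Enzymes that add fatty acids to it followed in the order of the pathway: Gpat3 at −3.69, Agpat2 at −2.59, Dgat1 at −2.55 and Dgat2 at −3.77, with adjusted p between 6.35e-23 and 6.71e-19. For Dgat2, which completes the triglyceride, the controls read 12.57, 12.58 and 12.33 and the KD 8.77, 8.78 and 8.63. The pattern was not shared by all isoforms, since Gpat4 fell by 0.51 (adjusted p = 0.0315), and Agpat1 (0.24), Agpat3 (−0.29) and Gpd2 (0.12) did not pass the test. Aqp7, the channel through which glycerol leaves the adipocyte, was at least 5.32-fold lower.

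In the uptake and activation of fatty acids, 4 of 27 probes were lower (median −0.14). Lpl, the lipoprotein lipase that frees fatty acids outside the cell, read 15.22, 15.12 and 15.15 in the controls and 12.87, 12.77 and 12.80 in the KD (−2.35, SE 0.10, adjusted p = 2.49e-19). Acsl1, which activates them inside the cell, fell 22.7-fold, from 12.78 to 8.28. Fabp5 fell from 9.52 to 6.99 (−2.53) and Dbi, an acyl-CoA binding protein, from 14.99 to 14.23 (−0.76). The probe for Fabp4, a classic PPARγ target, read 9.15, 7.38 and 6.35 in the controls and 5.21, 5.04 and 5.74 in the KD. It exceeded background on 2 control arrays, the pairs disagreed in size, and its difference of −2.30 (SE 0.54) did not pass the test. The Cd36 probe exceeded background on 1 control array and was not called either.

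In the list of fatty acid synthesis, 6 of 24 probes were lower (median −0.18). Thrsp, a lipogenic nuclear protein, was above background on no KD array and at least 8.68-fold lower. Pcx, pyruvate carboxylase, read 10.91, 10.80 and 10.38 in the controls and 7.94, 7.77 and 7.59 in the KD (−2.93, SE 0.13, adjusted p = 8.61e-19). Lower as well were Scd1, a stearoyl-CoA desaturase of fat (−1.72), Taldo1 of the pentose phosphate pathway (−1.20), Fasn, the fatty acid synthase (−0.88), and the citrate carrier gene Slc25a1 (−0.85). The 2 groups of Fasn arrays overlapped (13.74, 13.64 and 12.62 in the controls, 12.75, 12.78 and 11.84 in the KD), with replicate 3 the lowest under both siRNAs. Slc25a1 lost its call without replicate 1 (−0.87) and without replicate 2 (−0.73). Bright neighbours in the pathway did not pass the test, with Acly at −0.21, Scd2 at −0.20 and Elovl6 at 0.23.

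**Figure D2:**
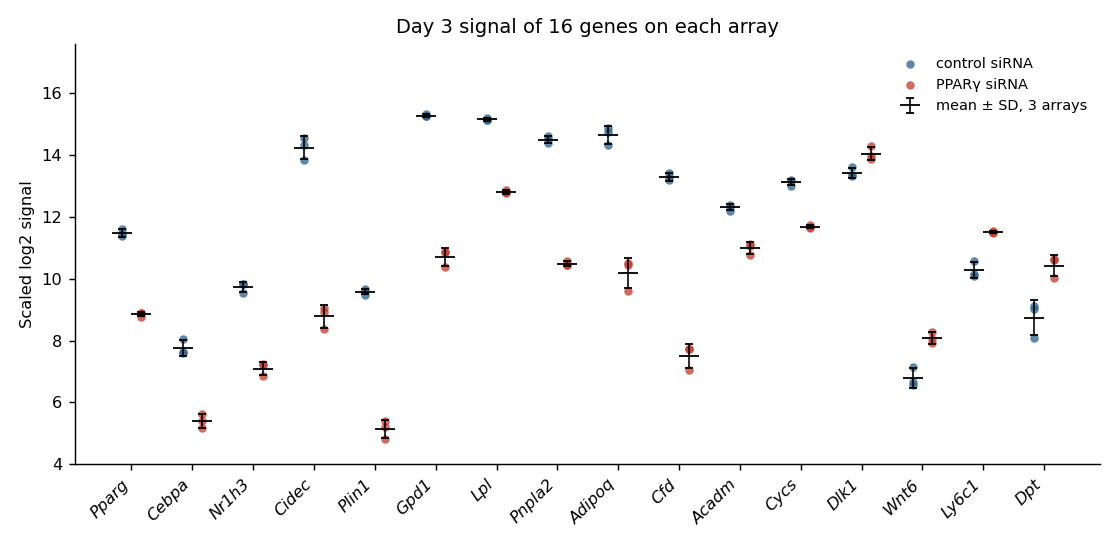
Scaled log2 signal of 16 genes on each of the 3 control siRNA arrays and 3 PPARγ siRNA arrays of day 3, with the mean and SD of each group. The genes were picked from those called, and the groups do not overlap for any of them, as was so for 10.9% of all probes. Plin1 and Cebpa lie below the background in the KD.

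In the list of fatty acid oxidation 19 of 45 probes were lower (median −0.55), in pyruvate dehydrogenase and the citric acid cycle 12 of 33 (median −0.54), among subunits of oxidative phosphorylation 23 of 59 (median −0.47), and in the breakdown of branched-chain amino acids 10 of 29 (median −0.54). The differences of oxidative phosphorylation (59 of 59 probes) and of branched-chain breakdown (29 of 29) were all below 0, as were those of 69.4% of all probes and of 44.2% of the probes above background on any array. In these lists, 54 and 24 probes were above background on any array. Acadm, the medium-chain dehydrogenase, read 12.34, 12.40 and 12.20 in the controls and 10.77, 11.06 and 11.14 in the KD (−1.32, SE 0.13, adjusted p = 2.81e-08). Cycs, cytochrome c, read 13.20, 13.17 and 13.01 in the controls and 11.66, 11.73 and 11.65 in the KD (−1.44, SE 0.08, adjusted p = 5.78e-15). The peroxisomal gene Pex11a was at −2.21, the acyl-CoA dehydrogenase genes Acads and Acadvl at −1.42 and −1.11, and the cycle enzymes Idh3a at −1.09 and Cs, citrate synthase, at −0.99. Bcat2, the first enzyme of branched-chain breakdown, went from 10.19 to 8.37 (−1.82), with Hibadh at −0.93 and Bckdha at −0.99. Complex subunits sat close together: Cyc1 at −1.06, Uqcrc2 at −0.81, Uqcrc1 at −0.80 and Ndufv1 at −0.69. One subunit stood out, Cox7a1, a cytochrome oxidase subunit of muscle and brown fat, which was at least 2.74-fold lower. These calls depended on the number of replicates: 5 probes of oxidative phosphorylation were called without replicate 1, 11 without replicate 2, 15 without replicate 3, 13 without the replicate block, 10 with a block by day and 3 with the day 3 arrays alone. On the day 3 arrays alone, 3 probes of the citric acid cycle and 4 of branched-chain breakdown were called. Without replicate 1, 6 probes of the citric acid cycle and 6 of branched-chain breakdown were called. Without the replicate block, 10 probes of fatty acid oxidation, 6 of the citric acid cycle and 6 of branched-chain breakdown were called. Uqcrc2 lost its call without replicate 1 (−0.80) and without replicate 3 (−0.76), and Ndufv1 without replicate 1 (−0.61).

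Of 36 probes for secreted proteins of the adipocyte, 13 (10 genes) were lower (median −0.41). Cfd, the protease adipsin, read 13.42, 13.29 and 13.18 in the controls and 7.73, 7.71 and 7.05 in the KD, 55.7-fold less (−5.80, SE 0.20, adjusted p = 5.31e-23). Adipoq, adiponectin, read 14.76, 14.89 and 14.32 in the controls and 10.43, 10.52 and 9.62 in the KD (−4.47, SE 0.23, adjusted p = 6.98e-17). Acute-phase proteins that fat also makes fell as well, with Hp, haptoglobin, at −3.63, Orm1 at −3.21 and the complement gene C3 at −0.92. Retn, resistin, was above background on no KD array. The 2 probes of Rarres2, which encodes the adipokine chemerin, disagreed: the brighter one (5890138) fell by 3.43, and the other (2230121) stood at 0.15. Lep, leptin, and Rbp4 were not well above background on any of the 6 arrays, and Serpinf1, bright in both groups, stood at −0.08. In the 11 lists described so far, which hold 360 distinct probes, 122 were lower (3 of them Pparg probes) and 0 higher in the limma fit. At an unadjusted p under 0.05, 223 were lower and 16 higher, and with Benjamini-Hochberg adjustment 9 were higher. Of all 24613 probes, 5516 had an unadjusted p under 0.05 in either direction, and 914 were higher with Benjamini-Hochberg adjustment. Counts given below at these thresholds are to be read against this general rate.

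In insulin signalling and glucose transport 2 of 34 probes were lower: Slc2a4, the insulin-responsive glucose transporter, at least 2.17-fold, and Insr, the insulin receptor (−0.59), a call lost whichever replicate was left out (−0.55, −0.68 and −0.53). The general transporter gene Slc2a1 stood at 0.38 and did not pass the test. In cholesterol synthesis and uptake 4 of 34 probes were lower, from Abcg1, a sterol exporter, Insig1, which holds back sterol synthesis, and Dhcr7, the last enzyme of that synthesis, whose call was lost without replicate 1 (−0.87) and without replicate 2 (−0.85). At an unadjusted p under 0.05, 17 of these 34 probes were lower, and 13 with Benjamini-Hochberg adjustment. Among antioxidant enzymes 6 of 34 probes (5 genes) were lower, with the glutathione transferase genes Mgst1 at −1.30 and Mgst3 at −1.02, and 3 probes of the list were called without replicate 1 and 4 without the replicate block. Hsd11b1, which regenerates active glucocorticoid, accounted for both called probes of 21 in the glucocorticoid-responsive list and fell 12.4-fold (12.65, 12.56 and 12.28 against 8.95, 8.96 and 8.70). In the unfolded protein response 1 of 34 probes was called, Xbp1, a factor of secretory cells, which fell by 0.84.

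**Figure D3:**
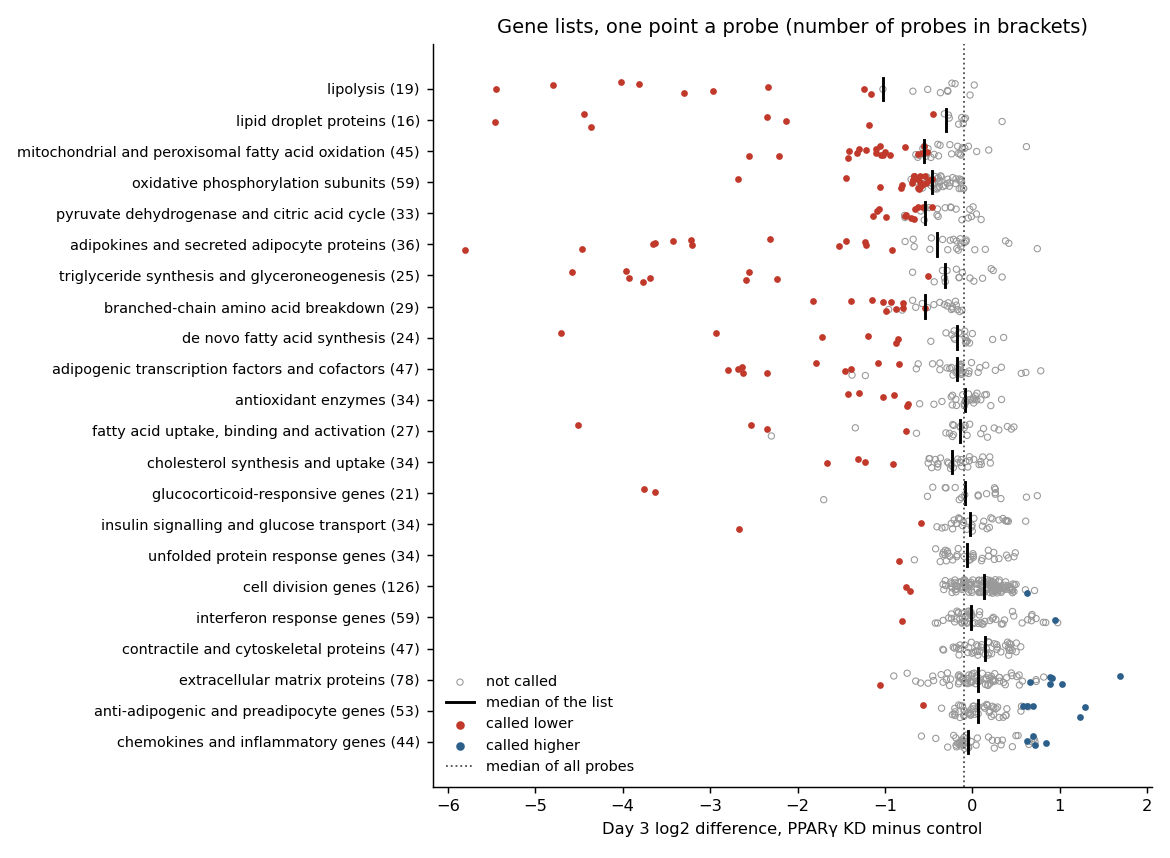
Day 3 log2 difference, PPARγ KD minus control, of every probe of 22 gene lists, with called probes filled, a bar at the median of each list and a dotted line at the median of all probes (−0.10). The lists of lipid and mitochondrial metabolism hold called probes on the lower side alone, with medians down to −1.02, and rises past the threshold lie in the matrix, preadipocyte, chemokine, interferon and cell division lists.

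Of the anti-adipogenic and preadipocyte genes, 5 of 53 probes were higher and 1 lower (median 0.06). Wnt6, a Wnt ligand that holds back adipogenesis, read 6.57, 6.65 and 7.16 in the controls and 8.04, 7.91 and 8.27 in the KD (1.28, SE 0.10, adjusted p = 1.39e-10). Ly6c1, a surface antigen, read 10.17, 10.10 and 10.59 in the controls and 11.48, 11.54 and 11.51 in the KD (1.23, SE 0.11, adjusted p = 1.14e-08). The groups were apart for both genes. Dlk1, the preadipocyte factor Pref-1, rose by 0.62 from a bright 13.43, Gata2, which can repress Pparg in preadipocytes, by 0.69, and Wnt5a by 0.57, while Tgfb2 fell by 0.56. The list counted 2 higher probes without replicate 1, 2 without replicate 2, 4 without replicate 3 and 1 without the replicate block. Dlk1 and Wnt5a lost their calls whichever replicate was left out, with differences between 0.59 and 0.66 and between 0.51 and 0.61. Gata2 and Tgfb2 lost theirs without replicate 1 (0.66 and −0.53) and without replicate 2 (0.72 and −0.58).

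Proteins of the extracellular matrix gave 6 higher and 1 lower of 78 probes (median 0.06). Dpt, dermatopontin, had the largest measured rise and read 9.11, 9.03 and 8.10 in the controls and 10.63, 10.62 and 10.03 in the KD (1.68, SE 0.14, adjusted p = 2.37e-10). Mfap5, a microfibril protein, rose by 1.03, the stromelysin gene Mmp3 by 0.91, the plasminogen activator gene Plat by 0.89 and its inhibitor gene Serpine2 by 0.66. Col15a1 was the lower one, with signal above background on 2 control arrays and no KD array. The fibrillar collagens and fibronectin did not pass the test (Col1a1 0.16, Col3a1 0.31, Fn1 0.24), although these were among the bright probes of the list. The list had 3 higher probes without replicate 1, 3 without replicate 2 and 3 without the replicate block. Mmp3 and Serpine2 lost their calls without replicate 1 (0.93 and 0.64), and these genes and Plat without replicate 2 (0.79, 0.58 and 0.77).

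Of the chemokine and inflammatory genes, 4 of 44 probes were higher, from the chemokine genes Cxcl1 (0.85) and Ccl9 (0.69) and 2 of 3 probes of Ptgs1, cyclooxygenase 1 (0.63 and 0.71). With quantile normalization there were 8, without the replicate block 1, without replicate 1 or replicate 2 1, and without replicate 3 2. Ccl9 lost its call whichever replicate was left out (0.71, 0.68 and 0.68), and Cxcl1 without replicate 1 (0.83) and without replicate 2 (0.82). Among 59 probes of interferon response genes, 1 was higher and 1 lower, while 16 were higher and 5 lower at an unadjusted p under 0.05, and 9 higher and 3 lower with Benjamini-Hochberg adjustment. Bst2 was the higher one and rose by 0.94, a call lost without replicate 1 (0.95) and without replicate 2 (0.79). The summed linear signal of the list was between 55988 and 62097 in the controls and between 71570 and 72546 in the KD. Such a sum is weighted to bright probes and does not stand for the whole list. The median difference of the list was −0.01, and 31 of its 59 probes were below 0. In the cell division list, 2 of 126 probes were lower, both from Cdkn2c, an inhibitor of cyclin-dependent kinases (−0.71, −0.76), and 1 was higher, Bub1b, which lost its call whichever replicate was left out (between 0.57 and 0.68). No Cdkn2c probe was called without replicate 1 (−0.68 at the brighter probe), without replicate 2 (−0.65) or without the replicate block. At an unadjusted p under 0.05, 40 probes of this list were higher and 8 lower, and with Benjamini-Hochberg adjustment 11 were higher and 2 lower. Contractile and cytoskeletal proteins gave 0 called of 47 probes in the limma fit, with differences between −0.34 and 0.55. At an unadjusted p under 0.05, 19 were higher and 2 lower, 8 were higher with Benjamini-Hochberg adjustment, 3 with quantile normalization and 1 without replicate 3.

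The 15 largest falls held 5 genes not yet described. BC054059, which the paper identifies as adipogenin, was at least 41-fold lower, the highest bound among them. It read 12.02, 11.84 and 11.88 in the controls and was above background on no KD array. The lipid droplet list sought adipogenin under other names, so this probe is missing from the count of that list. Ppp1r1a, a phosphatase inhibitor, was at least 16.2-fold lower, Ffar2, a receptor for short-chain fatty acids, at least 6.81-fold and BC034902 at least 7.1-fold. Poln, named for a DNA polymerase, fell from 10.65 to 6.55 (−4.10). Of the 15 largest rises, 11 belonged to none of the lists above. Prokr1, a prokineticin receptor, rose by 1.61, Npy1r, a receptor of neuropeptide Y, by 1.27 and Elmo1 was at least 1.56-fold higher at 1 of its 14 probes, while the other 13 were not well above background. Cxcl15 (1.42), Stc1, the glycoprotein stanniocalcin (1.26), Aldh3a1, an aldehyde dehydrogenase (1.12), Trim30d (1.11), Eva1a (1.10), Xpnpep2 (1.01), Fcgr4, an Fc receptor (1.00) and the cytokine Il18 (1.01) completed them. Npy1r, Trim30d and Eva1a lost their calls without replicate 1 (1.16, 0.90 and 1.09) and without replicate 2 (1.14, 1.02 and 0.96), and Il18 whichever replicate was left out (1.14, 0.76 and 1.13).

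Markers of cell types were read in the same way. The mature adipocyte markers include Pparg, the target of the siRNA. Without it, 9 of 12 probes for 11 markers were lower, and the median difference was −2.51. Their summed linear signal was between 82858 and 103673 in the controls and between 8760 and 9874 in the KD. Such sums are weighted to bright probes, here Lpl, Adipoq and Cidec among others, and do not stand for a whole set of markers. Fibroblast and preadipocyte markers summed to between 163229 and 170995 in the controls and between 171517 and 173027 in the KD, and Dlk1 was the 1 probe called of 19. Of 8 endothelial probes, 0 were above background on any array, and the same held for 12 of 14 macrophage, 7 of 8 skeletal muscle and 9 of 11 osteoblast and chondrocyte probes. The macrophage probes summed to between 782 and 964 in the controls and between 803 and 973 in the KD, and the defining markers Adgre1, Csf1r and Ptprc were not well above background. No probe of these 4 sets was called by limma, and 6 of their 41 probes had an unadjusted p under 0.05, against 5516 of all 24613. Brown adipocyte markers were at the background except Cox7a1 and a Ppargc1a probe, and Ucp1 was not well above background on any of the 6 arrays. How far these cell type markers account for other changes was not tested.

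Genes near binding sites mapped by the study were also followed. The study listed genes close to PPARγ and RXR sites within a short distance of each other (heterosites). To find targets, the paper also accepted PPARγ clusters below its threshold beside a called RXR site. The heterosites may therefore include sites not called for PPARγ. The study also listed genes close to sites called for 1 of the 2 only (monosites). When the study tested sites by PCR, almost all monosites were also bound by the partner. The paper ascribes the missed calls to sampling of weaker sites, so monosites are not sites of a single factor. The study drew up these lists from genes regulated on these arrays. Neither the share of their probes called here nor the direction is therefore independent evidence. Of 104 probes for 72 heterosite genes found, 61 were lower on day 3 and 1, Ccl9, was higher (median −0.70), whose call was lost whichever replicate was left out. Of 269 probes for 191 monosite genes, 87 were lower and 9 higher (median −0.38), and the difference between the classes was not tested. The heterosite probes called lower numbered 38 without replicate 1, and the monosite probes 47 without replicate 1, 55 without replicate 2 and 52 without the replicate block. The monosite probes called higher numbered 3 without replicate 1, 2 without replicate 2, 5 without replicate 3 and 4 without the replicate block. A further list, put together here as genes of the study's siRNA screen, held 21 probes, of which 13 were lower. The study chose its screened genes with these arrays. The paper's text names only part of this list as screened, and names Sncg and Cops7b for cloned regions, so the counts do not describe the screen. Genes of this list that did not pass the test on day 3 were Stat5a (−0.46), Sncg (−0.37), Lzic (−0.31), Cops7b (0.23), Pdzrn3 (0.52) and the gene now named Ilrun (0.43).

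The study cloned regions around binding sites near 7 genes, and the primers that delimit them are shown for 4 that fell on day 3, to place the sites beside the values. Coordinates are those of the study's mm8 build.
Gpd1, chr15:99543762-99544462, forward: cacccctcgtaatcagcgc
Gpd1, reverse: aaacagctggttacagtct
Plin1, chr7:79608006-79608706, forward: accgatagatccttggtagt
Plin1, reverse: cctgggattgaaacgaaaac
Pcx, chr19:4511250-4511950, forward: tacagcgtatacgaagtctg
Pcx, reverse: tgtaactgttggcatgtggtt
Pim3, chr15:88685615-88686315, forward: ttaggcctagatactcat
Pim3, reverse: atcccagaaggtacacct
On day 3, the differences were −4.58 for Gpd1, −2.93 for Pcx and −1.86 for Pim3, a kinase gene (12.92, 12.82 and 12.37 in the controls, 10.94, 11.09 and 10.49 in the KD), and Plin1 was at least 8.14-fold lower. Of the other cloned regions, that near Mgst1 belongs to a gene that fell by 1.30, and those near Sncg and Cops7b to genes that did not pass the test.

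Promoters of the called genes were searched for the element that the PPARγ and RXR pair recognizes, the half-site AGGTCA repeated once with 1 base between, AGGTCANAGGTCA, on both strands with up to 2 mismatches. The windows ran from 250 bases before to 50 bases after each RefSeq start (GRCm38.p6). A match was found for 20 of 366 genes called lower (5.46%), 1 of 81 called higher (1.23%) and 531 of 13496 genes of the array with a window (3.93%). The bare half-site AGGTCA was in 19.4%, 7.41% and 16.3% of these genes. The match nearest to the element among genes called lower was in Pdzk1, a scaffold protein gene chosen here for that match, with 1 mismatch, and Aqp7, described above, held a match with 2 mismatches in both windows of its RefSeq starts. The window whose start lies nearer to the match and that of Pdzk1 are shown with the match in capitals, in the direction of transcription.
Aqp7, chr4:41048087-41048386, minus strand: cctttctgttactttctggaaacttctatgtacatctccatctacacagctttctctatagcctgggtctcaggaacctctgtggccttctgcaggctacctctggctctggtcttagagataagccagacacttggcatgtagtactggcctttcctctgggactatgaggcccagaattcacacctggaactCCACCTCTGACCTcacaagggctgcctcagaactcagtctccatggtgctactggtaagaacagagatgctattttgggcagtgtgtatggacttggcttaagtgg
Pdzk1, chr3:96829815-96830114, plus strand: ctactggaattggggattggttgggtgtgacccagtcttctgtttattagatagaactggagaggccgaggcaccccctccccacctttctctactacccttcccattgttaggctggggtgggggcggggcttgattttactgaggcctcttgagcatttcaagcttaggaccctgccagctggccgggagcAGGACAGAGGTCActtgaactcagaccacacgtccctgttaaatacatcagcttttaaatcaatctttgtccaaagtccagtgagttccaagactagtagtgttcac
The Aqp7 match began 56 bases before the start and lay on the opposite strand, and the Pdzk1 match began 57 bases before it. Aqp7 read 9.17, 8.88 and 8.84 in the controls against 4.91, 4.75 and 5.33 in the KD. Pdzk1 read 7.75, 7.69 and 7.43 against 5.09, 4.87 and 5.32, with no KD array above background, at least 2.1-fold lower. Neither window says whether the sequence was bound.

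The effect of day 3 was then compared with that of the days beside it, by the difference of the 2 effects in the same fit. Against day 2 the effect differed for 371 probes (349 gene names), 1.51% of all probes, and against day 4 for 11 probes (10 gene names), 0.0447%. By the sign of the difference alone, 222 of the 371 were higher in the KD on both days but less so on day 3, 48 were higher on day 2 and lower on day 3, and 56 were lower on both days but less so on day 3. A further 33 were lower on day 2 and higher on day 3, and 12 were lower on both days and more so on day 3. Dropping the replicate block gave 123 such probes, and leaving out replicate 1, 2 or 3 gave 62, 70 and 257.

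Effects that were smaller on day 3 than on day 2 were found in the matrix and the cytoskeleton. Of the 47 contractile and cytoskeletal probes, 12 differed between the days. Actg2, a smooth muscle actin, was at 2.16 on day 2 and 0.50 on day 3 (change −1.65, SE 0.16, adjusted p = 5.77e-08), and Cnn2, calponin 2, at 1.94 and 0.44. The matrix list had 14 such probes of 78. Timp2, an inhibitor of matrix proteases, went from 1.44 to 0.20 (adjusted p = 2.73e-10), Plat from 2.63 to 0.89 and Fn1 from 1.42 to 0.24. Dpt was an exception, with 1.40 on day 2 and 1.68 on day 3 and no called change. In the preadipocyte list 8 of 53 probes differed, among them Ly6a (1.97 to 0.56), Sfrp2 (1.90 to 0.22) and Ly6c1 (2.78 to 1.23), and in the chemokine list 6 of 44, among them Ccl7 (1.88 to 0.46) and Csf1 (1.86 to 0.52). A smaller difference need not mean a lower KD level. For Plat the control mean went from 8.17 to 10.74 and the KD mean from 10.80 to 11.63. For Ly6c1 the control mean went from 8.45 to 10.28 and the KD mean from 11.23 to 11.51. In fatty acid oxidation, oxidative phosphorylation, the citric acid cycle, lipolysis and triglyceride synthesis, 0 probes differed between day 3 and day 2 in the limma fit. Of all probes 1.51% differed, so few calls are expected in lists of this size, and the 0 does not show an unchanged effect. At an unadjusted p under 0.05 their numbers were 7 of 45, 3 of 59, 5 of 33, 7 of 19 and 8 of 25, against 3974 of all 24613 probes. Called changes were found for 4 of 36 probes of secreted proteins, 2 of 16 of lipid droplet proteins and 1 of 29 of branched-chain breakdown. The lists of transcription factors, fatty acid uptake and fatty acid synthesis had 0.

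Single genes moved the other way. The difference of Cfd went from −3.97 on day 2 to −5.80 on day 3, as the control mean went from 9.03 to 13.30 and the KD mean from 5.07 to 7.50. Its day 2 KD mean lay under the lowest detected signals of the day 3 arrays (6.24 to 6.91), so the day 2 fall may be understated. Apoc1, an apolipoprotein of lipid particles, was at 0.26 on day 2, −1.53 on day 3 and −3.55 on day 4, and both steps passed the test. Day 3 minus day 2 was −1.78 (SE 0.23, adjusted p = 9.50e-05) and day 3 minus day 4 was 2.02 (SE 0.23, adjusted p = 4.65e-06). Acss2, which makes acetyl-CoA from acetate, was at −0.21 on day 3 and −1.50 on day 4. In the opposite direction, the falls of Pfkfb3, a regulator of glycolysis, and of Pim3 were larger on day 3 (−2.57 and −1.86) than on day 4 (−1.43 and −1.06). Of the 11 probes, 4 were falls larger on day 3 and 7 were falls smaller on day 3. Without replicate 1 or without replicate 2, 1 probe differed from day 4, and without replicate 3, 18.

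**Figure D4:**
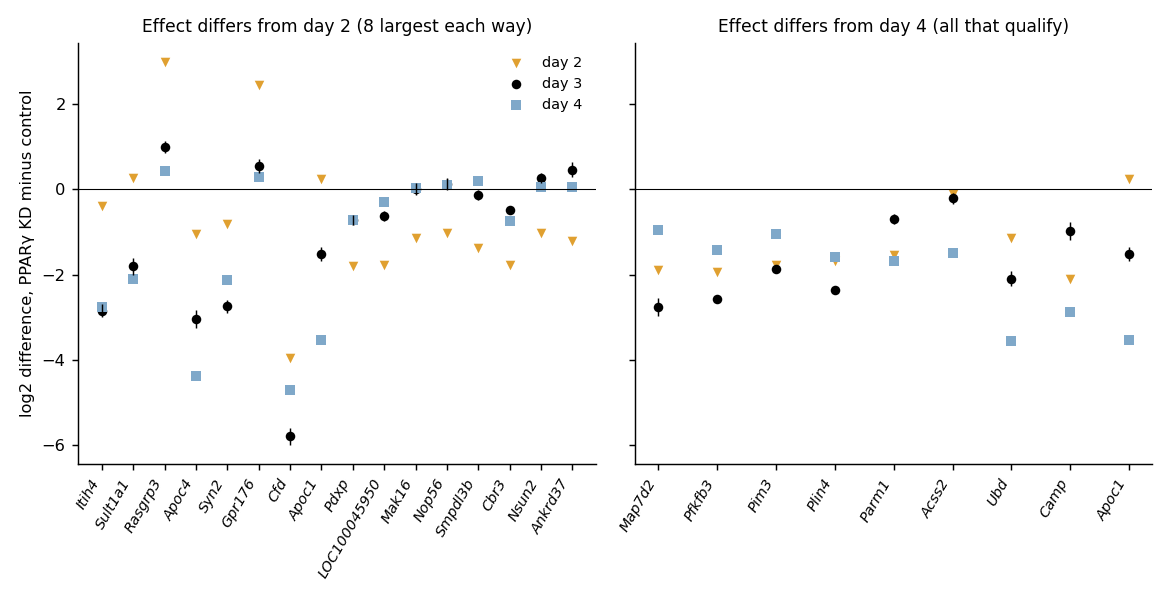
Log2 difference, PPARγ KD minus control, on days 2, 3 and 4 for the genes whose day 3 effect differed most from that of day 2 (left) and from that of day 4 (right). Points are fitted differences of 3 pairs, and lines at day 3 are 1 SE. The difference of Rasgrp3 went from 3.00 on day 2 to 0.99 on day 3. Its control mean rose from 5.34 to 7.43, while its KD mean stood at 8.34 and 8.42. The difference of Apoc1 moved from 0.26 to −1.53 and then −3.55.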

How the data were processed

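Bead-array signals of all 48 arrays were used, deposited by the authors as intensity averages per probe from BeadStudio 3.3.7 without normalization, each with a detection fraction that the authors' software gave (1 minus the detection p). The authors' rank-invariant normalization and batch removal are not in these values. Signals were background-corrected with normexp, its negative controls inferred from the detection p, and an offset of 16. Arrays were scaled on probes of stable rank (factors of 0.730 to 1.58) and taken to log2. A linear model with 1 mean for each combination of day and siRNA, blocked by replicate number, was fitted in limma 3.58.1 (R 4.3.3) on 24613 probes, with Bonferroni correction, after tests on simulated data. Figures were drawn with matplotlib 3.10.9.

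The replicate numbers come from the labels, which state independent biological replicates. Deviations from the group means of day 3 correlated at 0.811, 0.801 and 0.912 between same-numbered arrays, and at 0.787 and 0.850 between replicates 1 and 2, so that replicate 3 stood apart from both (−0.84 to −0.88). The chip of each array is not given in the sources used here. The number of arrays limits the precision.

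The comparison, gene lists and markers were chosen with earlier results of these data known. Named were Pparg, up to 6 called genes per list and direction with the largest difference, the 15 largest falls and rises that were above background on all arrays of a group, and the 8 largest changes per direction against days 2 and 4. Members not called are given where a list is described, and each gene by its brightest probe. Of 18991 array names, 13869 matched a RefSeq symbol and 3473 a synonym, and 1649 kept the array's name. Values of some genes are not reported here. Alternatives were quantile normalization, no background correction, an offset of 50, a filter on dim probes, no block, a block by day, day 3 alone, leaving out each replicate and Benjamini-Hochberg adjustment.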

Additional observations from a re-analysis of the deposited data

Results flagged for a closer look

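The effect of PPARγ KD on day 3 differed from that on day 2 for 371 probes and from that on day 4 for 11, each by a test of the difference between the days. Against day 2, the named genes whose KD minus control difference lay lower on day 3 were Itih4 (a change of −2.46), Sult1a1 (−2.06), Rasgrp3 (−2.00), Apoc4 (−2.00), Syn2 (−1.93), Gpr176 (−1.91), Cfd (−1.84) and Apoc1 (−1.78). Those whose difference lay higher on day 3 were Ankrd37 (1.67), Nsun2 (1.30), Cbr3 (1.30), Smpdl3b (1.24), Nop56 (1.16), Mak16 (1.16), LOC100045950 (1.15) and Pdxp (1.09). The day 2 KD means of Itih4, Apoc4 and Cfd and the day 2 control mean of Rasgrp3 lay under 6.24, the lowest detected signal of the day 3 arrays. The day 2 differences of these genes may be understated.

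Against day 4, the difference lay lower on day 3 for Map7d2 (−1.80), Pfkfb3 (−1.14), Pim3 (−0.81) and Plin4 (−0.78). It lay higher for Apoc1 (2.02), Camp (1.91), Ubd (1.47), Acss2 (1.29) and Parm1 (1.00). Of the 25 differences listed here by value, 19 lost their call without replicate 1 and 19 without replicate 2. Groups of 3 arrays are too small for a check of single arrays.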

How the results depend on the processing

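Pparg was called lower under each of the 10 alternative settings (−2.37 to −2.70). Counts of day 3 calls were 680, with 563 lower and 117 higher. Without the replicate block, which is shared by all days, they were 352, 317 and 35. With a block by day, which pairs the arrays of each day, they were 455, 402 and 53. Day 3 arrays alone gave 279, 262 and 17, Benjamini-Hochberg adjustment 2276, 1362 and 914, and quantile normalization 198 higher. Leaving out 1 replicate gave 280 to 540 calls, 257 to 451 lower and 18 to 89 higher. The 371 differences from day 2 were 123 without the block, 185 with a block by day, 1967 with Benjamini-Hochberg adjustment and 62 to 257 without 1 replicate. The 11 differences from day 4 were 27 with quantile normalization, 17 with the offset of 50, 3 without the block, 28 with Benjamini-Hochberg adjustment and 1 to 18 without 1 replicate. Of 1326 alternative values of named genes, 1155 kept their direction and call, 169 lost the call, and 2 changed sign with no call: Mak16 without replicate 2 (−0.089, up to 0.13 without replicate 3) and Nop56 (−0.020, up to 0.29). Of the 25 differences from day 2 or 4 flagged above by value, 19 lost the call without replicate 1, 19 without replicate 2, 5 without replicate 3 and 14 without the block. The cause was not tested. Probes near background have only bounds.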
